A study of Homo sapiens with 22 samples.

Results

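SFPQ (also called PSF), NONO and PSPC1 are the 3 human members of the DBHS family, nuclear proteins with a pair of RNA recognition motifs that join each other as dimers and build paraspeckles around the long noncoding RNA NEAT1. SFPQ was named for its part in splicing and also acts in transcription, in DNA repair and in the retention of RNA in the nucleus; NONO and PSPC1 are its dimer partners. The values below are those of the RNAs of these genes, not of their proteins. Every row of the symbols SFPQ, NONO and PSPC1 was taken from the 12 RNA immunoprecipitation (RIP-seq) tables: 116 of 478399 gene, intron and antisense rows, for 3 of 20294 gene symbols. SFPQ had 3 transcript, 31 intron and 3 antisense rows, NONO 4, 42 and 4, and PSPC1 3, 23 and 3. Many intron rows repeat 1 interval for several transcripts, and 41 different introns remained, 14 of SFPQ, 15 of NONO and 12 of PSPC1. Peaks of crosslinking immunoprecipitation (CLIP) within the 3 loci were added from 4 LNCaP lists.

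The groups were PSF-RIP libraries of 22Rv1, LTAD and LNCaP cells given 10 nM dihydrotestosterone (DHT), the strongest natural androgen, for 24 h, PSF-RIP libraries of the same lines given the ethanol vehicle, and input libraries of each line with DHT and with vehicle. LNCaP and 22Rv1 are established human prostate cancer lines; the labels do not spell out LTAD, whose cells were kept in medium free of phenol red with charcoal/dextran-treated serum. All cells spent 3 days in medium with little, charcoal-stripped serum before the hormone. Each line, treatment and assay had 1 library, so the 6 line-treatment pairs served as the samples of the RIP comparison, and the p-values reflect how far those libraries scatter, which may be technical, since the labels do not say that they came from separate cultures. The cells were measured in bulk, so fewer cells with an RNA and less of it per cell cannot be told apart. An immunoglobulin control was not analysed here, so enrichment means relative to input. PSF-CLIP of LNCaP cells had 2 peak lists with DHT and 2 with vehicle. The labels mark the second of each treatment with a 2, and the lists are called 1 and 2 here. CLIP lists of the series are also set apart as Anti-PSF and Anti-PSF-m, so lists 1 and 2 may differ in antibody.

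PSF-RIP libraries held 4641602 to 10439461 counted reads and inputs 1073228 to 3014049, so input values carry the larger counting error. Luminal prostate markers (KLK3, KLK2, HOXB13, TMPRSS2, FOLH1, KRT8 and KRT18) were all read in each line's inputs and summed to 745.1 to 2813 RPM (library-scaled reads). Of 3 basal, 3 stromal and 3 leukocyte markers 2 each were in the tables. They summed to 0 to 1.59, to 6.57 to 17.8 and to 3.59 to 41.1 RPM, TP63 was at 0 in all inputs, and the value of 41.1 was that of the LNCaP vehicle input. SFPQ, NONO and PSPC1 have copies annotated as pseudogenes elsewhere in the genome (SFPQP1, NONOP2, PSPC1P1 and PSPC1P2 in GENCODE), and only uniquely mapped reads were counted.

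The sequences that the results turn on are 2 CLIP sites in SFPQ, 1 in PSPC1, and the splice sites of 2 introns that stood out in the read counts. All are GRCh37 reference sequence, 5′ to 3′ on the strand of the gene. The site in the last SFPQ intron lies at chr1:35651353-35651572, and its 172 bases in capitals were covered by a peak in all 4 lists. The downstream SFPQ site lies at chr1:35647797-35648096 and is in capitals throughout because all 300 bases were covered in all 4 lists; they are the middle of a shared stretch of 310 bases. The PSPC1 site lies at chr13:20261611-20261811, with the 153 bases covered in 3 lists in capitals.
SFPQ last intron: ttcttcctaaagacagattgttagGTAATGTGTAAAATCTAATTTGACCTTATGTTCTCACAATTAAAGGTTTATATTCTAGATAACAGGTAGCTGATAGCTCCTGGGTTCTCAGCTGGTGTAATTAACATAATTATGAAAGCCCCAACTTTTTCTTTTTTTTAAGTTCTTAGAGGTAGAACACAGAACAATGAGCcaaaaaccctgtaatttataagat
SFPQ downstream: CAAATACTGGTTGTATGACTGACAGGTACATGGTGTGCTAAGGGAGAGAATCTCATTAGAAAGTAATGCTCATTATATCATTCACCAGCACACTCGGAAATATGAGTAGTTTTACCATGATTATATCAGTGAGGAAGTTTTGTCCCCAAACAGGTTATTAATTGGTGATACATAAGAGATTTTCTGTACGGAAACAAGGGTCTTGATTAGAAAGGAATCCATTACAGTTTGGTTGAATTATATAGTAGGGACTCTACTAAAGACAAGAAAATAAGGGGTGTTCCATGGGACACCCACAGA
PSPC1 position 1: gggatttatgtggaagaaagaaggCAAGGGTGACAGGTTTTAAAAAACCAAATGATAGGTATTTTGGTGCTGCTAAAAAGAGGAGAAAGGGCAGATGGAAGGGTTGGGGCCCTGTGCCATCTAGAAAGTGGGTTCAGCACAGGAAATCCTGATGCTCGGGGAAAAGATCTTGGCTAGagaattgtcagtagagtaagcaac

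The bases in capitals were 33.1% G or C in the last SFPQ intron, 37.7% downstream of SFPQ and 47.1% in PSPC1. The splice sites below belong to SFPQ intron 9, the last intron of the coding transcript, and to NONO intron 10. The capitals mark the first bases of the intron at its 5′ end (GT) and the last bases at its 3′ end (AG).
SFPQ intron 9 5′ splice site: ggaagtgacatgGTaatgtat
SFPQ intron 9 3′ splice site: gaactgttaattactgttccaatAGcgt
NONO intron 10 5′ splice site: ttccctgatgcgGTatatctc
NONO intron 10 3′ splice site: gtcttgagtattttttgtttttcAGaga

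SFPQ RNA was recovered above input in PSF-RIP in every line, PSPC1 RNA less so, and the NONO difference did not pass the test. Levels are given in RPKM, reads scaled to exon length and to library size, with library sizes adjusted by the trimmed mean of M-values (TMM). SFPQ stood at 97.6 with DHT and 93.8 with vehicle in 22Rv1 PSF-RIP, at 98.8 and 94.5 in LTAD PSF-RIP and at 123.8 and 126.9 in LNCaP PSF-RIP. In inputs SFPQ stood at 51.5 with DHT and 49 with vehicle in 22Rv1, at 43.1 and 45.5 in LTAD and at 59.1 and 60.9 in LNCaP. The lowest PSF-RIP value lay above the highest input value, and within each assay both LNCaP libraries lay highest. By edgeR's quasi-likelihood test across all genes SFPQ was higher in PSF-RIP by 1.04 ± 0.08 (log2, SE, 6 of 6 pairs higher, adjusted p = 1.27e-09). Of the 13284 genes tested 33.5% were called higher in PSF-RIP and 59.3% in either direction, their median was 0.10, and 94.6% of them lay below SFPQ.

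PSPC1 was represented by the row of NR_044998 and not by that of the coding transcript NM_001042414. The PSPC1 intron densities below use the exons of NR_044998 as well. PSPC1 stood at 18.1 with DHT and 15.8 with vehicle in 22Rv1 PSF-RIP, at 13 and 11.4 in LTAD PSF-RIP and at 13.3 and 12.5 in LNCaP PSF-RIP. In inputs PSPC1 stood at 11.5 with DHT and 12.3 with vehicle in 22Rv1, at 8 and 7.21 in LTAD and at 5.59 and 8.33 in LNCaP. Each PSF-RIP library lay above its own input. Both 22Rv1 inputs lay above the PSF-RIP library of LTAD with vehicle and below all other PSF-RIP libraries. The PSF-RIP difference of PSPC1 was 0.66 ± 0.13 (log2, SE, edgeR adjusted p = 0.000245), above 81.4% of genes, on 15 to 50 reads per input library.

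NONO stood at 48.1 with DHT and 47 with vehicle in 22Rv1 PSF-RIP, at 82.3 and 61.9 in LTAD PSF-RIP and at 87.3 and 79.7 in LNCaP PSF-RIP. In inputs NONO stood at 45.2 with DHT and 53.7 with vehicle in 22Rv1, at 82.8 and 72 in LTAD and at 88.6 and 88.3 in LNCaP. The 22Rv1 libraries of both assays lay below all others, those of LTAD and LNCaP overlapped, and the PSF-RIP difference of -0.08 ± 0.09 (log2, SE) did not pass (edgeR adjusted p = 0.425). It was -0.23 and past the threshold (adjusted p = 0.0299) once a trend with transcript length was taken out of the fold changes. Of the 3 genes NONO had the highest mean input level, at 71.8 ± 18.5 against 51.5 ± 7.2 for SFPQ and 8.82 ± 2.58 for PSPC1 (SD, n = 6 inputs each), with the ranges of NONO and SFPQ overlapping and PSPC1 apart. In PSF-RIP SFPQ stood highest, at 105.9 ± 15.2, against 67.7 ± 17.8 for NONO and 14 ± 2.47 for PSPC1 (SD, n = 6 libraries each), and the 3 ranges did not overlap.

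**Figure D1:**
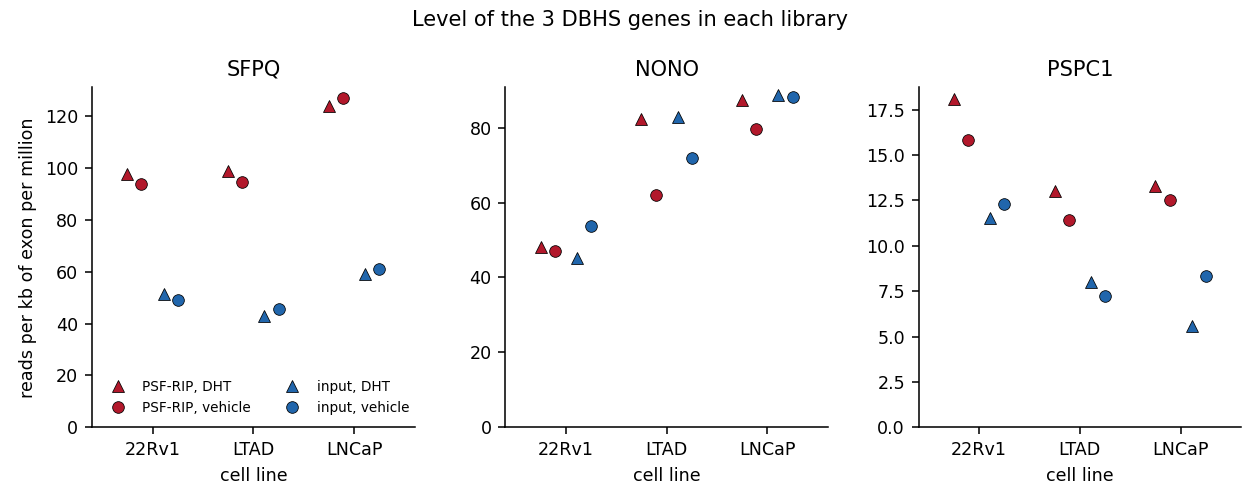
TMM-scaled RPKM (y axis, from 0, its own scale in each panel) of SFPQ, NONO and PSPC1 in the 12 libraries, by cell line (x axis); red stands for PSF-RIP, blue for input, triangles for DHT and circles for vehicle, 1 library per point. SFPQ PSF-RIP libraries (93.8 to 126.9) all lie above its inputs (43.1 to 60.9), and the 4 NONO libraries of 22Rv1 (45.2 to 53.7) lie below the other NONO libraries.

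No DHT difference in the level of the 3 genes passed the test. In inputs the DHT difference was -0.01 ± 0.11 for SFPQ, -0.01 ± 0.13 for NONO and -0.17 ± 0.21 for PSPC1 (log2, SE), and in PSF-RIP it was 0.03 ± 0.10, 0.19 ± 0.12 and 0.16 ± 0.14, with edgeR adjusted p-values from 0.403 to 0.989. Among all 13673 genes 0.592% were called in inputs and 2.72% in PSF-RIP. The LTAD pair was the widest for NONO, with PSF-RIP 0.41 higher with DHT. The difference of the DHT response between PSF-RIP and input did not pass for any of the 3 genes (edgeR adjusted p = 1 for each).

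22Rv1 and LNCaP differed in NONO and PSPC1 in opposite directions. NONO input was lower in 22Rv1 than in LNCaP by a log2 difference of -0.84 ± 0.16 (SE, edgeR adjusted p = 0.000879), and PSPC1 input was higher in 22Rv1 by 0.78 ± 0.25 (adjusted p = 0.0233, 0.0724 by DESeq2). Of all genes 50.3% were called in this comparison. SFPQ was at -0.26 ± 0.13 in 22Rv1 (adjusted p = 0.128). Between LTAD and LNCaP inputs, where 8.13% of genes were called, SFPQ was at -0.44 ± 0.14 (adjusted p = 0.0724), NONO at -0.19 ± 0.15 and PSPC1 at 0.16 ± 0.29 (edgeR adjusted p = 0.511 and 0.816), so none passed. No difference between lines in PSF-RIP enrichment passed for the 3 genes. The largest such value was -0.39 ± 0.31 for PSPC1, 22Rv1 minus LNCaP (edgeR adjusted p = 0.899). Over all genes edgeR called 0 in either enrichment comparison, with 838 and 715 genes at an unadjusted p under 0.05; DESeq2 called 7 for 22Rv1, and with each pair of libraries as a block edgeR called 422 for 22Rv1 and 272 for LTAD, where SFPQ, NONO and PSPC1 stayed uncalled (edgeR adjusted p from 0.608 to 0.996).

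The last intron of SFPQ stood out from the other introns of the 3 genes. This intron (chr1:35650195-35652601, 2407 bases, GRCh37) is the ninth from the 5′ end of the coding transcript NM_005066 (chr1:35649201-35658743, minus strand). Only the last exon follows it. Its read density, in percent of the density in SFPQ exons of the same library, was 26.4% with DHT and 32.8% with vehicle in 22Rv1 PSF-RIP, 19.1% and 34.1% in LTAD PSF-RIP and 37% and 51.6% in LNCaP PSF-RIP. In inputs the density was 26.3% with DHT and 29.4% with vehicle in 22Rv1, 9.71% and 13.8% in LTAD and 28.6% and 40.7% in LNCaP. The LNCaP vehicle library was highest in both assays, and both LTAD inputs lay below every other library. Summed over libraries it was 32.7% in PSF-RIP and 26.5% in input. Among 127404 introns in PSF-RIP and 104221 in input whose genes had at least 100 exon reads, 96.9% and 96.7% had a lower density, and the medians were 2.04% and 2.19%.

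Reads of this intron were 1.48 ± 0.17 higher in PSF-RIP (log2, SE, 6 of 6 pairs, edgeR adjusted p = 2.15e-06). Of 28850 introns tested 17% were called higher and 25.1% in either direction, and the median was 0.22. Set against SFPQ exons of the same library, the intron was higher in PSF-RIP in 5 of 6 pairs, by a mean log2 of 0.50 ± 0.49 (SD, n = 6 pairs), which did not pass an exact two-sided sign-flip test (p = 0.0625, where 6 pairs cannot go below 0.0312). The widest pair was at 1.27, and with a prior count of 0.5 in place of 2 the p was 0.0312.

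The 5 other introns of the coding transcript with at least 10 reads went the other way. Against exons, introns 1, 2, 4, 6 and 7 were lower in PSF-RIP in each of the 6 pairs, with mean log2 ratios of -1.64 ± 0.65, -1.03 ± 0.78, -1.95 ± 1.54, -2.31 ± 0.70 and -1.60 ± 1.12 (SD, n = 6 pairs, exact sign-flip p = 0.0312 each). With a prior count of 0.5 introns 1 and 6 kept that p, while introns 2, 4 and 7 no longer passed (exact sign-flip p = 0.25, 0.125 and 0.156). Across all 87395 introns with at least 10 reads, 9.64% were lower in all 6 pairs and the median was -0.11; adjusted over all of them the p of each was 0.177, the smallest value the test gave. Intron 6 (chr1:35653692-35654603) held the most reads of these, 72 in PSF-RIP and 47 in input. Its density was 2.12% of exons in PSF-RIP and 12.8% in input. Its reads were also lower in the fit across introns, by -1.57 ± 0.43 (log2, SE, edgeR adjusted p = 0.0111, 0.0609 without 22Rv1). An edgeR fit of intron and exon counts together, chosen after seeing the data, gave -2.63 ± 0.41 for the same ratio (adjusted p = 2.38e-08) and 0.47 ± 0.28 for the last intron (adjusted p = 0.299), where 11.1% of introns were called. It also called introns 1, 4 and 7 (edgeR adjusted p = 0.00777, 2.61e-05 and 0.0212) and not intron 2 (adjusted p = 0.674), which had 10 reads.

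**Figure D2:**
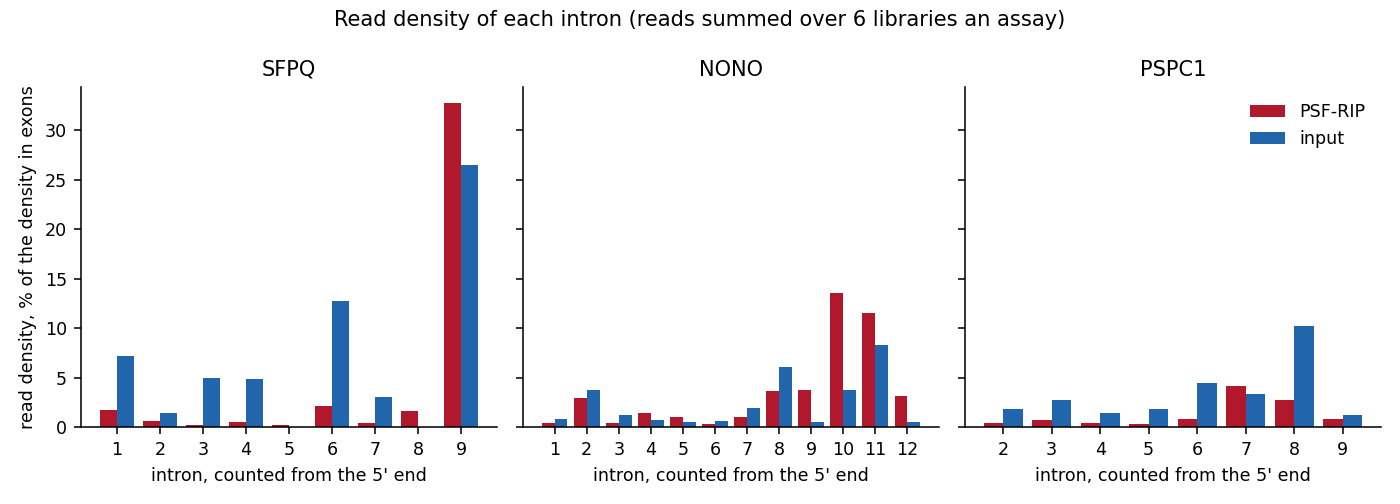
Read density of each intron as a percent of the density in exons of the same gene (y axis, from 0), introns counted from the 5′ end of NM_005066, NM_001145408 and NM_001042414 (x axis); red bars stand for PSF-RIP and blue for input, reads summed over 6 libraries each. SFPQ intron 9 reaches 32.7% in PSF-RIP and 26.5% in input, and NONO intron 10 reaches 13.6% and 3.8%; PSPC1 intron 1, which other transcripts hold as exon, is left out.

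Reads continued past the end of the coding SFPQ transcript. The longer transcripts NR_136702 and NR_136703 (chr1:35641979-35658746) skip the last coding exon, and their long intron (chr1:35643638-35652601) spans the last intron, that exon and 5563 bases downstream of it. Reads over the downstream bases (chr1:35643638-35649200, with 226 bases of NR_136702 exons that cannot be parted from them) were obtained by subtracting the rows that overlap. GENCODE v44 counts 3745 of the 5563 bases to an exon of some SFPQ transcript. The density there was 25.4% of exons with DHT and 32% with vehicle in 22Rv1 PSF-RIP, 18.8% and 26.5% in LTAD PSF-RIP and 32.4% and 47.1% in LNCaP PSF-RIP. In inputs it was 20.7% with DHT and 24.2% with vehicle in 22Rv1, 15.8% and 20.8% in LTAD and 24.9% and 43.7% in LNCaP. In every PSF-RIP library the downstream density lay below that of the last intron, in some by little. In inputs it lay above that of the last intron in LNCaP with vehicle and in both LTAD libraries. It lay below in the other inputs.

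Against exons the downstream reads were higher in PSF-RIP in 6 of 6 pairs, by a mean log2 of 0.29 ± 0.11 (SD, n = 6 pairs, exact sign-flip p = 0.0312, unadjusted). The row of the long intron as a whole was 1.21 ± 0.11 higher in PSF-RIP (log2, SE, edgeR adjusted p = 7.11e-08). The coding row NM_005066 was lower in PSF-RIP relative to the NR_136702 row, with a mean log2 ratio between the rows of -0.10 ± 0.08 (SD, 0 of 6 pairs higher, exact sign-flip p = 0.0312). Most exons are shared by both rows, so this ratio rests on the parts that differ: the last coding exon in one and the 3 short last exons in the other. It was 1 of 18 comparisons of stretches or transcript rows, 9 with each contrast, whose p-values are given unadjusted. The introns between the last exons of the longer transcripts, chr1:35642076-35642919 (NR_136702) and chr1:35643001-35643589, held 52 and 60 reads, and the NR_136703 form of the first (chr1:35642073-35642919) held 64. Against exons they were at -0.27 ± 1.28 and 0.12 ± 0.62 in PSF-RIP (mean log2, SD, n = 6 pairs, exact sign-flip p = 0.688 and 0.656), and the sign of both changed with the prior count.

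With DHT both stretches held fewer reads relative to SFPQ exons. The last intron was lower with DHT in 6 of 6 line-assay pairs, by a mean log2 of -0.46 ± 0.23 (SD, n = 6 pairs, exact sign-flip p = 0.0312), and the downstream stretch by -0.46 ± 0.20 (6 of 6 lower, exact sign-flip p = 0.0312). The PSF-RIP and input library of a line and treatment may share a culture, so these 6 pairs are not fully independent. Introns in general were also lower, with a median of -0.12, and 4.69% of all 87395 introns were lower in all 6 pairs. Adjusted over all introns the p of the last SFPQ intron was 0.525, the smallest value this test gave, and the edgeR fit of intron and exon counts gave -0.48 ± 0.27 (adjusted p = 0.737), where 0.0538% of introns were called. In the fit across introns the DHT difference of the last intron was -0.52 ± 0.17 in PSF-RIP and -0.38 ± 0.23 in input (log2, SE, edgeR adjusted p = 0.183 and 0.879), where 0.819% and 0.0748% of introns were called, and neither passed. The difference between those DHT responses did not pass either (-0.14 ± 0.29, edgeR adjusted p = 1, 0.0173% of introns called). The widest drop in the last intron was -0.83 and the narrowest -0.16. No DHT difference in SFPQ exons passed, as given above.

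The LTAD inputs held little of the last SFPQ intron. Its level was 10.1 with DHT and 15.1 RPM with vehicle in LTAD input, against 40.6 and 59.7 RPM in LNCaP input, on 13 reads in each LTAD library. The LTAD difference from LNCaP was -2.0 ± 0.31 (log2, SE, edgeR adjusted p = 0.000226), where 3.01% of introns were called, the median of all introns was -0.62 and 13.3% lay lower. The long intron that contains it was at -1.21 ± 0.20 (adjusted p = 0.000584). Against exons and over both assays the last intron was at -1.05 ± 0.34 in LTAD (log2, SE, edgeR adjusted p = 0.054), which did not pass, where 3.66% of introns were called. In 22Rv1 input the last intron was at -0.56 ± 0.25 (adjusted p = 0.126) and the long intron at -0.61 ± 0.19 (edgeR adjusted p = 0.0277, 0.114 by DESeq2), where 17.7% of introns were called. Enrichment of the last intron was -0.40 ± 0.33 in 22Rv1 and 0.86 ± 0.38 in LTAD relative to LNCaP (log2, SE, edgeR adjusted p = 0.703 and 0.863), where 0.0661% and 0.0144% of introns were called, and neither passed.

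**Figure D3:**
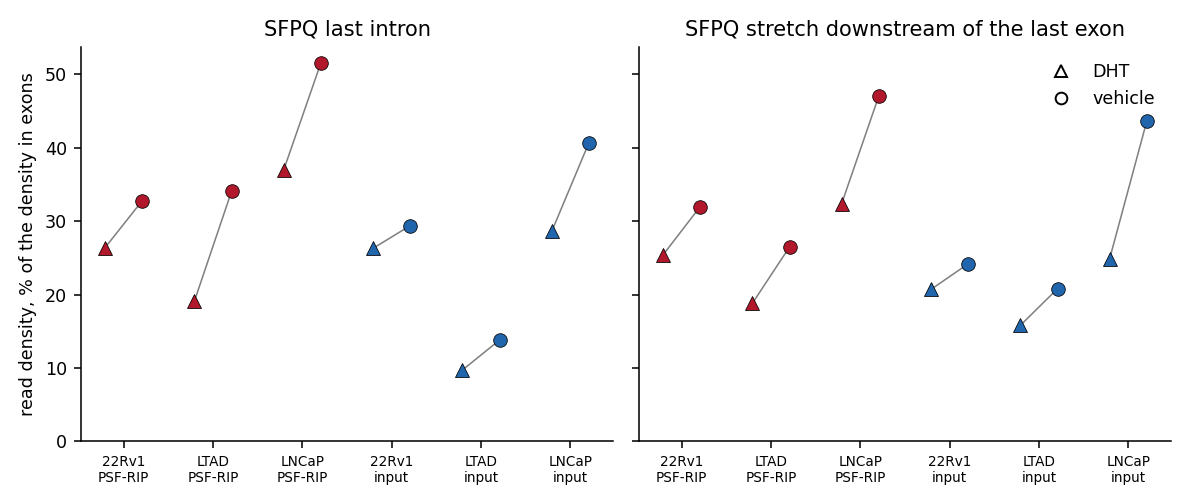
Read density of the last SFPQ intron (left panel) and of the stretch downstream of the last exon (right panel) as a percent of the density in SFPQ exons of the same library (y axis, from 0), by line and assay (x axis); triangles stand for DHT, circles for vehicle, and a line joins the 2 libraries of a line and assay. The DHT point lies below the vehicle point in all 6 pairs of both panels, and LNCaP vehicle is highest (51.6% and 47.1% in PSF-RIP).

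Some NONO introns near the 3′ end were higher in PSF-RIP, while the difference in NONO exons did not pass. NONO lies at chrX:70503042-70521018 on the plus strand. Intron 10 (chrX:70517789-70518318, 530 bases) had 18 reads with DHT and 34 with vehicle in 22Rv1 PSF-RIP, 15 and 23 in LTAD PSF-RIP and 23 and 61 in LNCaP PSF-RIP. In inputs it had 2 reads with DHT and 2 with vehicle in 22Rv1, 1 and 1 in LTAD and 2 and 3 in LNCaP. In RPM every PSF-RIP library lay above its own input. The PSF-RIP difference was 1.86 ± 0.37 (log2, SE, 6 of 6 pairs, edgeR adjusted p = 0.00107), above 99% of introns. Against NONO exons intron 10 was higher by a mean log2 of 1.5 ± 0.52 (SD, 6 of 6 pairs, exact sign-flip p = 0.0312), as were intron 9 by 1.26 ± 0.62 and intron 5 by 0.85 ± 0.65; 8.04% of all introns were higher in all 6 pairs. Intron 12 was higher in 5 of 6 pairs (1.85 ± 1.51, exact sign-flip p = 0.0625). The edgeR fit of intron and exon counts called intron 10 (1.95 ± 0.49, adjusted p = 0.00192) and intron 12 (2.54 ± 0.72, adjusted p = 0.00791) and not intron 9 or intron 5 (adjusted p = 0.08 and 0.413). Of all introns 11.1% were called by this fit. Inputs held 1 read of intron 9 and 3 of intron 12, against 34 and 85 reads in PSF-RIP.

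The long intron 3 of NONO (chrX:70504948-70510478, 5531 bases) went the other way. Its density was 0.457% of exons in PSF-RIP and 1.29% in input, its reads were lower by -1.41 ± 0.38 (log2, SE, 0 of 6 pairs higher, edgeR adjusted p = 0.00963), and against exons it was lower in 6 of 6 pairs by -0.95 ± 0.60 (SD, exact sign-flip p = 0.0312). Rows of other transcripts that cover this intron and exon bases beside it were at -1.03 ± 0.31 for chrX:70504304-70510478 (edgeR adjusted p = 0.0187, 0.302 without 22Rv1 and 0.0923 without LTAD), at -0.62 ± 0.27 for chrX:70503572-70510478 and at -0.35 ± 0.16 for chrX:70503572-70511628 (log2, SE, edgeR adjusted p = 0.101 and 0.117). Introns 1, 2, 4, 6, 8 and 11 held 10 to 64 reads each, and their means against exons ran from -0.48 to 0.63 (log2, exact sign-flip p from 0.0625 to 1). None of the 11 NONO introns tested against exons differed with DHT in all 6 pairs. In the edgeR fit of intron and exon counts, over both assays, intron 10 was lower in LTAD than in LNCaP by -1.49 ± 0.47 (log2, SE, adjusted p = 0.0478). There 3.66% of introns were called, and the median of all introns was -0.47. Intron 3 was higher in 22Rv1 by 1.48 ± 0.48 (edgeR adjusted p = 0.0215), where 12.4% were called and the median was 0.27. In the fit across introns neither difference passed in input (-1.05 ± 1.12 and 0.94 ± 0.66, log2, SE, edgeR adjusted p = 0.662 and 0.34). Each LTAD input held 1 read of intron 10.

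The 4 NONO transcripts are nested and differ in alternative exons of the 5′ part. NM_001145410 lacks an exon of 163 bases (chrX:70510479-70510641) that NM_001145409 has. That exon held 667 reads in PSF-RIP and 178 in input, and its density was 128.3% to 194.8% of NM_001145410 exons in PSF-RIP and 168% to 229.2% in input, so reads over it were denser than over the rest in every library. Its ratio to the other exons was -0.25 ± 0.21 in PSF-RIP against input (mean log2, SD, 2 of 6 pairs higher, exact sign-flip p = 0.125) and 0.20 ± 0.19 with DHT (6 of 6 pairs higher, exact sign-flip p = 0.0312, lowest 0.03). The 57 bases that NM_007363 adds (chrX:70504247-70504303) held 89 reads in PSF-RIP and 12 in input, and the 114 bases that NM_001145408 adds (chrX:70504834-70504947) held 16 and 3. Neither ratio passed in either contrast (exact sign-flip p from 0.281 to 0.812).

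In PSPC1 (chr13:20248892-20357159, minus strand) the intron at the 3′ end of the longer transcripts was higher in PSF-RIP. This last intron of NR_044998 (chr13:20249794-20251863, 2070 bases) had a density of 16.3% of exons in PSF-RIP and 8.79% in input, on 170 and 13 reads. Intron 8 (chr13:20279972-20283681) was denser in input, at 2.78% in PSF-RIP and 10.2% in input, on 52 and 27 reads. Reads of the last intron were 1.56 ± 0.39 higher in PSF-RIP (log2, SE, 6 of 6 pairs, edgeR adjusted p = 0.00608, 0.0713 without LNCaP), and against exons they were higher in 5 of 6 pairs by 0.87 ± 0.95 (SD, exact sign-flip p = 0.0938, 0.0312 with a prior count of 0.5). The NR_003272 form of this intron (chr13:20249125-20251863), which also holds exon bases, was at 1.41 ± 0.32 (log2, SE, edgeR adjusted p = 0.00273, 0.0547 without LNCaP). Intron 7 (chr13:20283740-20304378), at 4.19% of exons in PSF-RIP and 3.39% in input, was higher by 0.85 ± 0.27 (edgeR adjusted p = 0.0249, 0.0782 by DESeq2), and by 0.32 (adjusted p = 0.556) without 22Rv1. The 22Rv1 PSF-RIP libraries held 90 reads of intron 7 with DHT and 235 with vehicle, against 23 to 31 in the PSF-RIP libraries of the other lines. Against exons and over both assays 22Rv1 was 1.25 ± 0.33 above LNCaP in that intron (log2, SE, edgeR adjusted p = 0.00271), where 12.4% of introns were called. Intron 9, with 12 reads in all, was likewise called in 22Rv1 (3.99 ± 1.44, edgeR adjusted p = 0.0459). The row chr13:20251964-20304378 of the longer transcripts spans introns 7 to 9, coding exons and the bases downstream, and held 1007 reads. It was at 0.39 ± 0.18 in PSF-RIP (log2, SE, edgeR adjusted p = 0.125, 0.0469 without LNCaP), and in input it was higher in 22Rv1 than in LNCaP by 1.11 ± 0.33 (edgeR adjusted p = 0.0193, 0.0579 with no expression filter).

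Several introns of the 5′ and middle part of PSPC1 were lower in PSF-RIP against exons. Introns 2, 3 and 6 were lower in 6 of 6 pairs, by -1.63 ± 1.10, -1.97 ± 1.06 and -2.47 ± 1.30 (mean log2, SD, n = 6 pairs, exact sign-flip p = 0.0312 each). Of all 87395 introns 9.64% were lower in all 6 pairs, and adjusted over all introns each sign-flip p was 0.177. Introns 2 and 3 held 13 and 25 reads in the inputs. With a prior count of 0.5 intron 2 no longer passed (exact sign-flip p = 0.0625), and in the fit across introns intron 3 did not pass (-1.40 ± 0.56, log2, SE, edgeR adjusted p = 0.0719, 0.0197 by DESeq2). Introns 4, 5, 8 and 9 held 12 to 79 reads each, with means against exons from -1.59 to -0.52 (log2, exact sign-flip p from 0.0625 to 0.156). The edgeR fit of intron and exon counts called introns 2, 3 and 6 and also introns 5 and 8 (adjusted p from 6.69e-07 to 0.0222), where 11.1% of introns were called. Intron 6 (chr13:20304485-20315704) had 48 reads in PSF-RIP and 36 in input, a density of 0.848% and 4.49% of exons, and reads lower by -2.0 ± 0.49 in the fit across introns (log2, SE, edgeR adjusted p = 0.00491, 0.0797 without LTAD). In the ratio to exons 0.229% of all introns lay below it. No difference in the ratio of PSPC1 transcript rows passed: NM_001042414 against NR_003272 was at -0.03 ± 0.15 in PSF-RIP against input and at -0.07 ± 0.17 with DHT (mean log2, SD, n = 6 pairs, exact sign-flip p = 0.719 and 0.5). Reads over the 25045 bases downstream of NM_001042414 were obtained by subtraction, together with 458 exon bases of the longer transcripts. Together they held 300 reads in PSF-RIP and 57 in input, at 0.988% to 3.35% of exon density in PSF-RIP and 0% to 3.55% in input. Of the 458 bases 125 lie near the 5′ end of the gene, and the row of that interval held 94 and 13 reads. The median of all introns was 2.04% in PSF-RIP and 2.19% in input.

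CLIP peaks fell in SFPQ and PSPC1 and not in NONO. The lists held 23580 (list 1) and 13546 (list 2) peaks with DHT and 24242 (list 1) and 7691 (list 2) with vehicle. Each peak has the authors' score, from 50 to 3230.05. Peaks of the 4 lists that overlapped by at least 1 base were joined into positions. SFPQ had 6 positions, PSPC1 11 and NONO 0. A position in any list was found in 44.7% of 20254 gene loci. A position shared by all 4 lists was found in 2.4% of loci, and SFPQ had 2 of them, PSPC1 and NONO 0. Of all 45364 positions, 2.24% were shared by the 4 lists. Among 430 genes with a locus length within 2-fold of that of SFPQ and an LNCaP input level at or above it, 4.19% had such a position. A position in some list was held by 55.8% of those genes, by 53.9% of 232 genes likewise close to NONO and by 92.5% of 1740 genes likewise close to PSPC1. With 2 lists a treatment no test of DHT was made, and the peaks carry no strand.

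The positions that all 4 lists shared in SFPQ were those printed above. One lies in the last intron, 7206 bases from the start site in vehicle list 1. Its scores were 110.65 (list 1) and 69.14 (list 2) with DHT and 164.34 (list 1) and 58.87 (list 2) with vehicle, and DHT list 2 had a further peak beside it at 50.78. The other lies downstream of the last coding exon, 10812 bases from the start site in vehicle list 1, where neither the RefSeq transcripts of the tables nor GENCODE v44 have an exon. Its scores were 165.48 (list 1) and 66.58 (list 2) with DHT and 165.64 (list 1) and 61.78 (list 2) with vehicle. Both thus fell in the stretches whose reads stood out in RIP-seq, and within their lists the scores ranked above 11% to 85.5% of peaks, lowest for the further peak of DHT list 2. Under a score of at least 100 both dropped out of the list 2 sets, and no SFPQ position was shared by all 4.

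The highest SFPQ scores were in the first exon and came from the lists numbered 2. That position (chr1:35657824-35658657) scored 657.99 with DHT, the 43rd highest of 13546 peaks, and 236.95 with vehicle, the 457th of 7691. The lists numbered 1 had no peak there. Lists 1 and 2 may differ in antibody, and the cause of this difference was not tested. They shared instead a position over exons in the middle of the gene (chr1:35654515-35655104) with scores of 91.14 with DHT and 65.92 with vehicle. The 2 remaining positions were in DHT lists, 1 in each, with scores of 61.17 and 57.17.

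**Figure D4:**
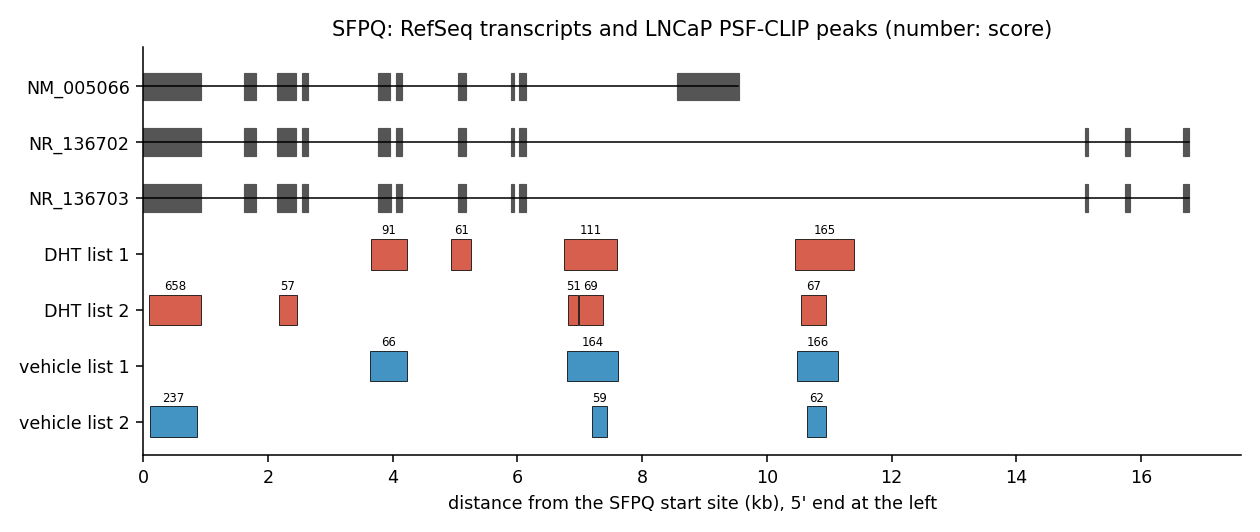
Exons (grey boxes) of the 3 RefSeq transcripts of SFPQ and LNCaP PSF-CLIP peaks of the 4 lists (red for DHT, blue for vehicle, the number above a peak is the authors' score), by distance from the start site in kb (x axis), drawn to scale. Peaks of all 4 lists line up in the last intron of NM_005066, about 7 kb from the start, and downstream of its last exon, about 11 kb from the start.

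In PSPC1 7 of 11 positions lay in the 25045 bases between the end of NM_001042414 and the last exons of the longer transcripts (chr13:20251964-20277008). No position was shared by all 4 lists. The positions in 3 lists were the one printed above, which scored 208.4 (list 1) and 50.27 (list 2) with DHT and 248.06 in vehicle list 1, and one at chr13:20273858-20274406, which scored 113.72 (list 1) and 79.69 (list 2) with DHT and 58.37 in vehicle list 1. Vehicle list 2, the shortest list, had 1 PSPC1 peak, at a score of 51.8. Of the 11 positions 2, both only in vehicle list 1, overlapped exons of the coding transcript, with scores of 52.66 and 59.05. The 6 other positions had scores from 50.54 to 116.24. Without vehicle list 1 there were 6 positions. In contrast to SFPQ, RIP-seq reads did not stand out in the stretch that held most PSPC1 peaks. Counted together with 458 exon bases outside it, its density was 0.988% to 3.35% of exons in PSF-RIP. The median of all introns there was 2.04%. Whether the peaks and the reads are related was not tested.

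**Figure D5:**
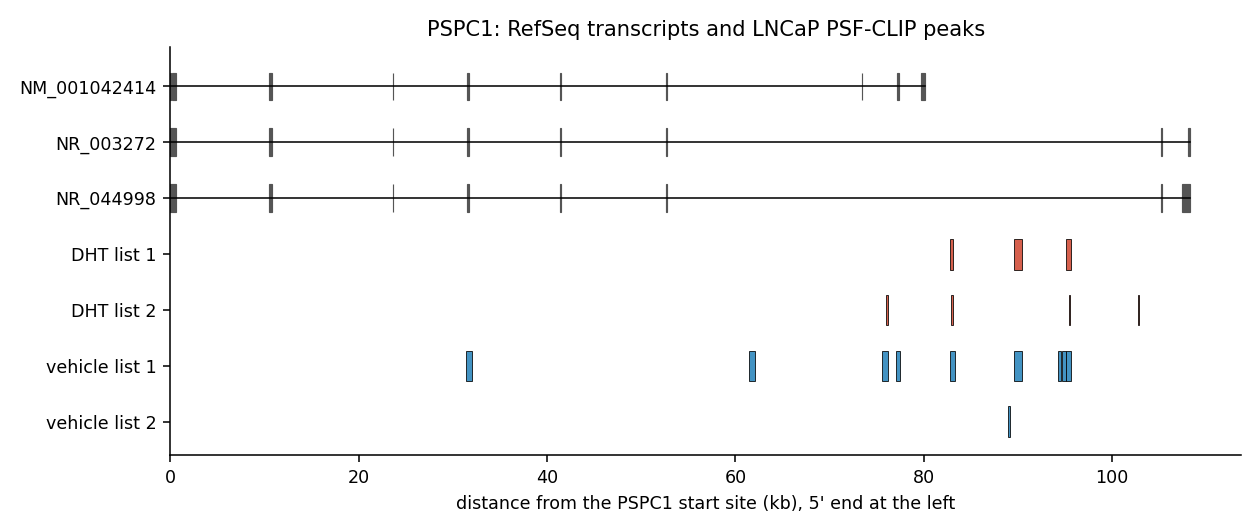
Exons (grey boxes) of the 3 RefSeq transcripts of PSPC1 and LNCaP PSF-CLIP peaks of the 4 lists (red for DHT, blue for vehicle), by distance from the start site in kb (x axis), drawn to scale. Peaks gather between about 76 and 103 kb, mostly past the last exon of NM_001042414.

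Other paraspeckle components were mostly higher in PSF-RIP, with exceptions that include the scaffold RNA itself. Of 30 listed genes all were tested, 20 rose and 5 fell, where 33.5% of all genes rose and 25.8% fell, with a median of 0.45 against 0.10 over all genes; this list was drawn up with earlier results known. The smallest p-values were those of AHDC1 (1.38 ± 0.10, log2, SE, edgeR adjusted p = 4.74e-10), of SMARCA4, a chromatin remodelling ATPase (0.83 ± 0.09, adjusted p = 2e-07), and of NEAT1, the RNA on which paraspeckles are built, which fell by 0.94 (SE 0.10, 0 of 6 pairs higher, adjusted p = 1.09e-07). Of 14 partners of DBHS proteins in splicing, repair and transcription, 11 rose and 0 fell, against the same 33.5% and 25.8% of all genes, with a median of 0.51. They were led by SNRNP70, a protein of the U1 particle (1.18 ± 0.10, adjusted p = 3.35e-09), U2AF2, which binds the polypyrimidine tract (0.96 ± 0.09, adjusted p = 1.27e-08), and PRPF8, the core splicing factor (0.97 ± 0.12, adjusted p = 9.61e-07). With DHT, 0 of 30 and 0 of 14 were called by edgeR in either assay.

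Over the 12 libraries the level of SFPQ (TMM log2 RPM) ran most like those of MUM1, DAB2IP, NXF1, FNBP4 and ZC3H11A, with Pearson r from 0.968 to 0.977 among 6641 genes at or above the median level. NONO ran most like BEX4, RPF1, FBXL17, TCEAL4 and CORO2A (r from 0.96 to 0.967), and PSPC1 most like TAF2, RAB4B-EGLN2, MBD1, PPP1R12C and PAPD7 (r from 0.944 to 0.957). These libraries share lines and assays, and 2.48%, 2.03% and 0.888% of genes had an r above 0.9 with SFPQ, NONO and PSPC1. Among the 3 genes themselves r was 0.644 for SFPQ and PSPC1, 0.0546 for SFPQ and NONO and -0.589 for NONO and PSPC1 (n = 12 libraries each).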

How the data were processed

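The authors deposited, for each of the 12 RIP-seq libraries, raw counts of reads that map once in hg19, per the file headers, with a row for every RefSeq transcript, intron, antisense and intergenic interval and without normalization, and for each CLIP library a list of peaks with a score, deposited per library. The submitters' processing notes name TopHat2 2.1.0, Bowtie2 2.2.6 and Bowtie without their roles; how reads across exon ends were counted is not given in the sources used here. The 12 columns of 2 tables of the whole series could not be matched to samples and were not used, and 4 further samples whose labels disagree were not analysed here. A gene was represented by its transcript with the highest mean count. edgeR 4.0.16 (quasi-likelihood, filterByExpr, TMM from genes, Benjamini-Hochberg over all rows of a kind) was the test, DESeq2 1.42.0 an alternative; it was tested on simulated counts. Models held line, treatment and assay, and for the DHT and line comparisons also their interactions with assay. Of the 41 introns 32 overlap no exon and 14 passed the expression filter of the PSF-RIP comparison. In the DHT and line comparisons chr1:35654984-35656098 of SFPQ and chr13:20356932-20357056 of PSPC1 passed as well. Ratios of intron to exon reads used a prior count of 2, scaled to library size, and exact two-sided sign-flip tests over 6 pairs, run for all introns. PSF-RIP and input libraries were paired by the line and treatment in their labels; the fit with each pair as a block is an alternative. The members and lists were chosen with earlier results of these data known. Given by value or range were all intron and antisense rows of the 3 genes with at least 10 reads and all CLIP peaks in their loci. Named were the 5 genes most like each, and the 3 smallest p-values of each list. Some genes of the partner and luminal marker lists are not reported here, and the lists' counts and sums are without them.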

Additional observations from a re-analysis of the deposited data

Results flagged for a closer look

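The density downstream of the last SFPQ exon in the LNCaP vehicle input, 43.7% of exons, lay apart from the other 5 inputs, whose median with it was 22.5%. The gap to the next value was 0.67 of the whole range. The 6 inputs come from 3 lines and both treatments, so the spread holds those differences. It was the only result flagged among 67 examined. Most of these were differences in enrichment or in DHT response, judged by edgeR adjusted p and not by the gap. For a set of 6 values judged by the gap, chance flags about 1 in 20. No gene or intron of SFPQ, NONO or PSPC1 passed the test of a difference in enrichment between lines or of a difference in DHT response between PSF-RIP and input; DHT responses were not tested between lines.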

How the results depend on the processing

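For the gene fits of SFPQ, NONO and PSPC1, 132 of 141 alternative values kept their direction and side of the threshold, and for the intron fits 571 of 604. For introns against exons 287 of 336 and for the compared stretches 73 of 80 were counted as kept. Among these, values without a line rest on 4 pairs, where no exact p can go below 0.125. There a result that had passed was counted as kept although it could not pass. A change of sign came with 55 of these 1161 alternative values, all for differences that had not passed the test. With each line-treatment pair as a replicate block, SFPQ stood at 1.04, NONO at -0.08, PSPC1 at 0.66 and the last SFPQ intron at 1.47, and no call on these 4 changed. NONO reached -0.23 with the length trend removed (edgeR adjusted p = 0.0299). The last SFPQ intron against exons reached 0.52 in PSF-RIP with a prior count of 0.5, and with DHT -0.48 in the edgeR fit, which did not pass. Leaving out each line in turn gave 0.99 to 1.11 for SFPQ, 0.57 to 0.79 for PSPC1, 1.21 to 1.73 for the last SFPQ intron, 0.21 to 0.72 for that intron against exons in PSF-RIP and -0.58 to -0.36 with DHT; with 4 pairs left no exact p can go below 0.125.

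Counts over all genes moved more. For DHT in input, 81 genes became 142 with DESeq2, 394 with no expression filter and 23 to 97 without a line. For DHT in PSF-RIP, 372 became 938 with no filter and 103 to 396 without a line. For the difference of those responses, 0 became 6 with the replicate block. For enrichment in 22Rv1, 0 became 7 with DESeq2, 13 with no filter, 422 with the replicate block and 1 without LTAD. For enrichment in LTAD, 0 became 5 with no filter and 272 with the block. Intron calls in PSF-RIP went to 4043 to 6819 without a line, against 7241. Where no cause is plain from the setting, the cause was not tested.

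At an overlap of 50% of both peaks SFPQ had 1 position in all CLIP lists. At a score of at least 100 SFPQ had 3 positions in any list and 0 in all, and PSPC1 had 3 in any. Leaving out a list in turn gave 6 to 11 PSPC1 positions in any list and 0 to 2 in all that remained. A strand-specific count was not run, since the peaks carry no strand. Depth limits the inputs most: PSPC1 had 15 to 50 reads in an input library, and NONO intron 10 had 1 to 3.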

Other observations

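Antisense reads were almost absent at the 3 loci. Over the 12 libraries the antisense rows held 19 reads at the longest SFPQ locus (15 in PSF-RIP and 4 in input). The row over the coding SFPQ transcript held 18 (14 and 4). At the longest PSPC1 locus there were 17 reads (15 and 2) and at NONO 4 (4 and 0). No row had more than 5 reads in a library, and none entered a test. The first PSPC1 intron of NM_001042414, 125 bases that the longer transcripts keep as exon, had a density of 149% of exons in PSF-RIP and 145.6% in input, on 94 and 13 reads.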
